A study of Rattus norvegicus with 23 samples.

Results

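The genes described here are those of B cells and of the plasma cells that B cells become, in the lungs of elderly rats after inhalation of a TiO2 nano-aerosol. They were chosen by name from a list of 33 genes, by matching the gene name given to each probe, and 32 of the 33 were found, with 51 probes, among 23029 genes measured. No probe carried the name Ighm, the constant part of the IgM heavy chain, and no value is given under that name. All 51 probes passed the filter on low signals. B cells recognise antigen through a membrane immunoglobulin whose signal is passed on by CD79A and CD79B, and a set of transcription factors led by PAX5 and EBF1 keeps their identity. On activation some of them lose this programme under BLIMP1 and XBP1 and become plasma cells, which fill their endoplasmic reticulum with immunoglobulin and secrete it. In the lung, B cells lie scattered or in follicles beside the airways, and IgA joined by the J chain is carried across the airway epithelium.

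RNA was extracted from the accessory lobe of male F344 rats of 19 months and hybridised on single-colour rat expression arrays, 1 rat per array. Exposed rats had breathed TiO2 by the nose at 10 mg/m3 for 6 h/day on 5 days/week over 4 weeks, and control rats had breathed filtered air in the same way. At the end of exposure (D0) there were arrays of 6 control and 5 exposed rats. At 28 days after it (D28) there were arrays of 6 rats in each group. A rise or fall of a gene in such a whole lobe cannot tell apart more cells of a type from more RNA per cell.

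Values are log2 processed signals of the scanner software, quantile normalized between arrays, and the probes of a gene were averaged. The share of spots that the software marked as well above background ran from 69.5 to 77.9%, and arrays correlated with each other at 0.96 to 0.99. The arrays came from 5 slides, of which 3 held exposed and control arrays of both days, and replicate 4 of the D28 controls was alone on its slide and was read by a later version of the software. Of the 32 genes, 27 were well above background on all 23 arrays by at least 1 probe. The other 5 were Cd72 (17 arrays), Cr2 (15), Blk (21), Fcrl1 (8) and Vpreb1 (3), whose values are the least precise. The B cell markers Cd79a and Spib were well above background on every array.

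The first question was whether the exposure changed these genes in either direction on either day. One limma model of the 4 groups was fitted to all genes. A differentially expressed gene (DEG) had to pass a threshold of 0.05 on the p adjusted by Benjamini and Hochberg's method, and a fold change (FC) of 1.5 or more. With limma, 0 of 32 members passed both thresholds on D0 and 0 of 32 on D28, where 1.79% and 0.756% of all genes did. Unadjusted p-values below 0.05 were given to 5 members on each day, and to 2751 of all 23029 genes on D0 and 2532 on D28. Passing the adjusted p alone were 2 members on D0, Spib which fell and Derl3 which rose, against 2.86% of all genes. On D28 it was passed by Cd24, which fell, against 1.32% of all genes. Counts of 2 and 1 among 32 genes are too small to be set apart from these shares. The median log2 FC of the members was 0.09 on D0 and 0.05 on D28, beside -0.0007 and -0.0056 for all genes, and 25 of the 32 had the same sign on both days. Leaving out the members with a group near background, the medians were 0.09 over 31 members and 0.08 over 30. On each day 15 of the 32 had a 95% confidence interval that lay wholly inside the limit of 1.5-fold (0.585 on the log2 scale), while the intervals of the others reached past it.

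**Figure D1:**
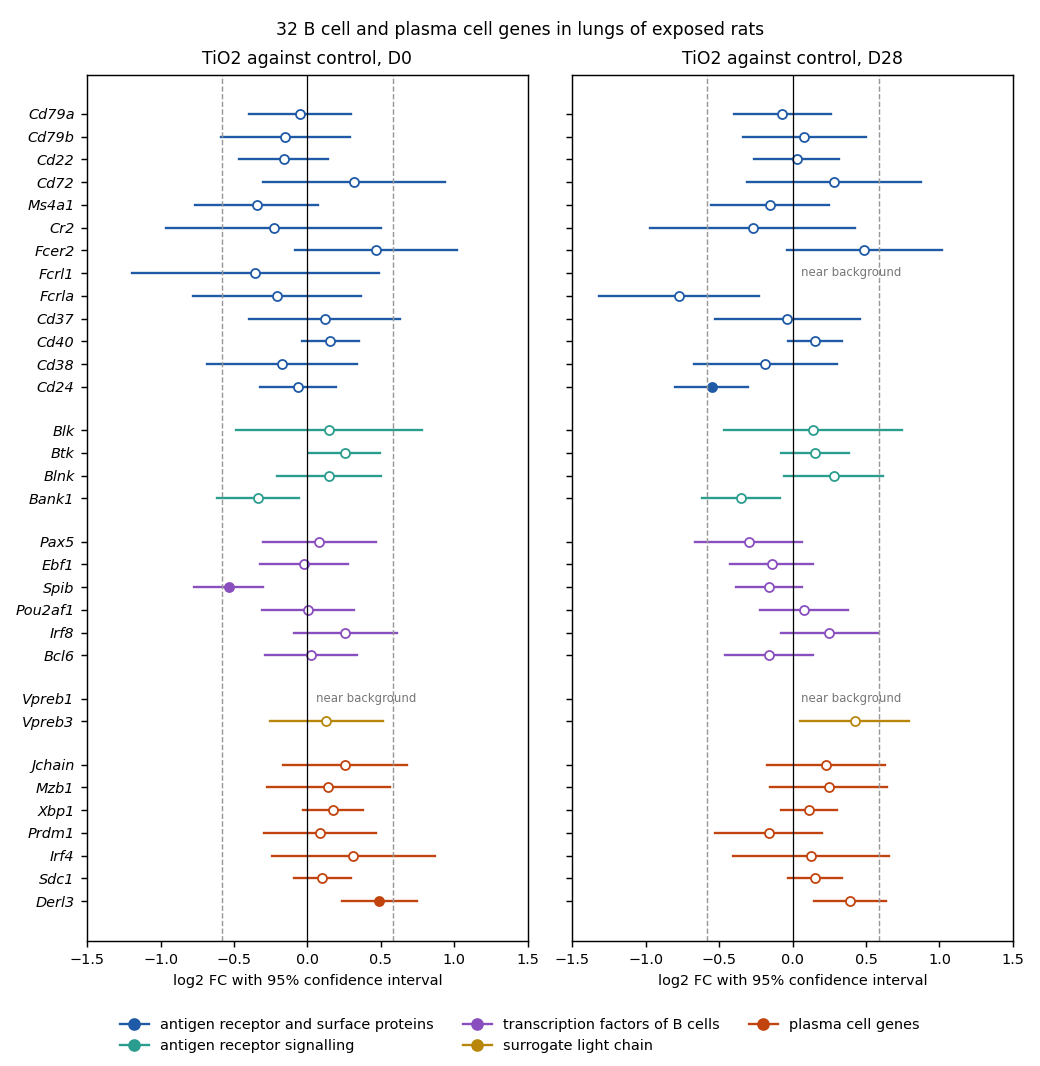
Log2 FC (horizontal axis) of the 32 genes (rows, coloured by role) in exposed against control rats on D0 (left) and D28 (right), with 95% confidence intervals from limma, where filled points passed the adjusted p of 0.05 and dashed lines mark a FC of 1.5. The filled points are Spib (-0.54) and Derl3 (0.49) on D0 and Cd24 (-0.55) on D28, and no interval is drawn for Vpreb1, or for Fcrl1 on D28, since a group lay near background.

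Averaged over both days, which uses all 23 arrays, 4 of 32 members passed the adjusted p, against 6.55% of all genes. These were Derl3, which rose by 0.44 (limma adjusted p = 0.00239), and Spib, Bank1 and Cd24, which fell by 0.35 (adjusted p = 0.00711), 0.34 (0.0263) and 0.31 (0.0325). None of the 4 reached a FC of 1.5 in the average. For the difference of the effect between the days, limma gave 0 of 32 members an adjusted p below 0.05 (0.0304% of all genes), and unadjusted p-values below 0.05 to 3 of them, Cd24 (0.0105), Vpreb1 (0.016) and Spib (0.0242). Vpreb1 was well above background on only 3 of the 23 arrays, so that its p rests on values near background. Of all 23029 genes, 793 had such an unadjusted p for the difference.

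Of the antigen receptor and surface proteins, 13 were measured, and 4 of them were higher and 9 lower in exposed rats on D0, with a median log2 FC of -0.15. None passed the test on D0, and 1 did on D28. Cd79a, a signalling chain of the receptor, had 5.98, 6.04, 6.08, 6.11 and 6.21 in the 5 exposed rats on D0, while the controls ran from 5.82 over a median of 6.15 to 6.40. On D28 the exposed rats ran from 5.44 over 5.92 to 6.56 and the controls from 5.77 over 6.00 to 6.59. The groups overlapped on both days, and the log2 FC was -0.05 on D0 (95% confidence interval -0.40 to 0.29) and -0.07 on D28 (-0.40 to 0.26), so that a change of Cd79a by 1.5-fold lay outside the intervals. Its partner Cd79b differed by -0.15 on D0 (-0.59 to 0.29) and 0.08 on D28 (-0.34 to 0.50). Ms4a1, which encodes CD20, differed by -0.35 on D0 and -0.16 on D28 (adjusted p = 0.592 and 0.868), and its exposed rats on D0 lay between 6.28 and 6.79 against 6.33 to 7.30 in controls. Cd22, an inhibitory co-receptor, and Cd37, a tetraspanin of mature B cells, differed by at most 0.16 in either direction. Cd40, through which T cells stimulate B cells, was 0.15 higher on both days (adjusted p = 0.619 and 0.581). Cr2, the complement receptor of B cells and follicular dendritic cells, Cd72, an inhibitory receptor, and Cd38, an ectoenzyme shared with plasma cells, had log2 FC between -0.27 and 0.31 over both days and were not past the test.

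Cd24 encodes a small anchored glycoprotein of immature B cells that epithelial cells and neutrophils carry as well. On D28 its signal in exposed rats ran from 12.42 over a median of 12.70 to 12.94, and in controls from 13.03 over 13.17 to 13.61. All 6 exposed rats lay below all 6 controls, and Cd24 was the only member without overlap on that day, when 1.22% of all genes had none. The difference was -0.55 on the log2 scale (95% confidence interval -0.80 to -0.30, limma adjusted p = 0.0235), a FC of 1.47 downwards. On D0 the exposed rats had 12.56, 12.67, 12.91, 12.98 and 13.00 against 12.69 to 13.06 in controls, a log2 FC of -0.07. The controls of D28 were also 0.37 above those of D0 (adjusted p = 0.178), and these are the same arrays against which the exposed rats of D28 were set. Within the 3 slides that held both groups on D28, with 1 or 2 rats of each, the difference was -0.53, -0.44 and -0.17. The adjusted p was above 0.05 in 3 of 23 fits that left out 1 array, those without replicate 3 of the D28 controls or replicates 1 or 6 of the exposed rats of D28, with a highest value of 0.067. It was also above 0.05 when only the arrays of D28 were fitted (0.167). The fall in the average of both days passed in 13 of the 23 fits that left out 1 array, and did not with scaling to the 75th percentile. Of 8 epithelial marker genes, 0 passed the limma test on D28 and 2 had an unadjusted p below 0.05, both lower, with a median log2 FC of -0.06, and the mean of the list ran from 12.64 to 12.79 in exposed rats and from 12.55 to 12.95 in controls. Of 9 neutrophil markers 0 passed the limma test on D28, with 1 lower at an unadjusted p below 0.05 and a median of -0.14, and Ngp (-0.83) and Mmp8 (-0.68) had the largest differences. Their mean ran from 7.55 to 8.10 in exposed rats and from 7.23 to 8.47 in controls. The part of these cells in the fall of Cd24 was not tested. The 60-base Cd24 probe, at chr20:47507471-47507530 on the plus strand of rn4, is shown by its first 30 bases so that the measured stretch of the transcript can be found.
Cd24 probe: acctcacagacccgaagctactgtgtgtgt

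Fcrla, an Fc receptor-like protein kept inside B cells, had the largest difference on D28 among members above background. Its signal ran from 9.92 over 10.40 to 11.46 in exposed rats and from 10.65 over 11.24 to 11.98 in controls, with 4 of 6 exposed rats below all controls. The log2 FC of -0.78 (95% confidence interval -1.32 to -0.23) did not pass the adjusted p (0.19). It did with the slide as a block, where it was a DEG. That fit gives no weight to the D28 control alone on its slide, which had the lowest Fcrla value of its group (10.65). On D0 the exposed rats had 9.60, 9.74, 10.09, 10.38 and 10.45 against 9.80 to 10.76 in controls, a log2 FC of -0.21 (adjusted p = 0.931). Fcer2, the low-affinity IgE receptor CD23, was higher on both days, by 0.47 on D0 and 0.49 on D28 (adjusted p = 0.573 and 0.515). On D28, 5 of 6 exposed rats (3.99 over 4.88 to 5.38) were above all controls (4.07 over 4.39 to 4.53) and the sixth below them, and on D0 the exposed rats had 4.22, 5.19, 5.54, 5.57 and 5.59 against 4.07 over 4.90 to 5.29. Within slides it was not always higher, with -0.32 on 1 of 4 slides on D0 and -0.07 on 1 of 3 on D28. These values average 2 probes. One gave 0.61 on D28 (adjusted p = 0.0658), and the other was not well above background in any rat of D28 or any control of D0, so that no FC is given for it. With the first probe the D28 controls were 0.65 below those of D0 (limma adjusted p = 0.0492, over probes). These are the same arrays against which the exposed rats of D28 were set. Fcrl1, another Fc receptor-like protein, had 3.21, 3.96, 4.08, 4.55 and 4.62 in exposed rats on D0 against 3.93 over 4.33 to 4.99 in controls. It was well above background in 3 of 5 and 3 of 6 of these rats, and its difference of -0.36 was smaller than its standard error (0.40). On D28 it was well above background in 2 of 6 controls and 0 of 6 exposed rats, and no FC is given.

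Of the 4 genes of antigen receptor signalling, Blk and Btk, both tyrosine kinases, and Blnk, an adaptor that binds BTK, were higher in exposed rats on both days, by 0.14 to 0.28. None of the 3 passed the test, and Btk came nearest on D0 (0.25, adjusted p = 0.377). Bank1, a scaffold of B cells that binds LYN, was lower on both days. On D0 its signal was 7.71, 7.94, 7.95, 7.97 and 8.56 in exposed rats against 8.19 over 8.35 to 8.49 in controls, so that 4 of 5 exposed rats were below all controls and the fifth above them. On D28 it ran from 7.68 over 8.06 to 8.14 in exposed rats and from 7.98 over 8.34 to 8.58 in controls. The log2 FC was -0.34 on D0 and -0.35 on D28, neither of them past the test alone (adjusted p = 0.256 and 0.242), and -0.34 in the average of both days (0.0263). The average lost the test without replicate 4 of the exposed rats of D0, without replicate 1 of the exposed rats of D28, and with the probe of higher mean signal alone, where the adjusted p was 0.382.

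Of the 6 transcription factors of B cells, 1 passed the test. Spib encodes an Ets family factor that mature B cells use with PU.1 and that plasmacytoid dendritic cells express as well. On D0 the exposed rats had 9.21, 9.22, 9.30, 9.51 and 9.53, and the controls ran from 9.61 over 9.86 to 10.14. All 5 exposed rats lay below all 6 controls, and Spib and Derl3 were the members without overlap on D0, when 4.31% of all genes had none. The log2 FC was -0.54 (95% confidence interval -0.77 to -0.30, limma adjusted p = 0.00887), a FC of 1.45 downwards. Spib passed the adjusted p in all 23 fits that left out 1 array and in all 13 other settings tried, with a log2 FC between -0.59 and -0.48, and it was lower within each of the 4 slides that held both groups on D0, with differences of -0.89, -0.49, -0.51 and -0.39 from 1 or 2 rats of each group. On D28 the exposed rats ran from 9.65 over 9.77 to 10.02 and the controls from 9.74 over 9.91 to 10.32. The groups overlapped and the log2 FC was -0.16 (adjusted p = 0.664), and the change of the effect by 0.38 between the days did not pass the test (adjusted p = 1). Spib rests on 1 probe, at chr1:95004231-95004290 on the minus strand of rn4, of which the first 30 of 60 bases follow.
Spib probe: agggggcaggaaaggatcatggaagatcca
Of 8 dendritic cell and plasmacytoid markers, 1, Clec9a, rose on D0 (1.00, adjusted p = 0.0242) and 0 fell, with 0.48 for Clec10a (0.142), while their median log2 FC was 0.10. Their mean ran from 8.65 to 9.14 in exposed rats and from 8.50 to 8.97 in controls. Clec9a marks conventional dendritic cells that take up dead cells. The part of these cells in the fall of Spib was not tested.

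**Figure D2:**
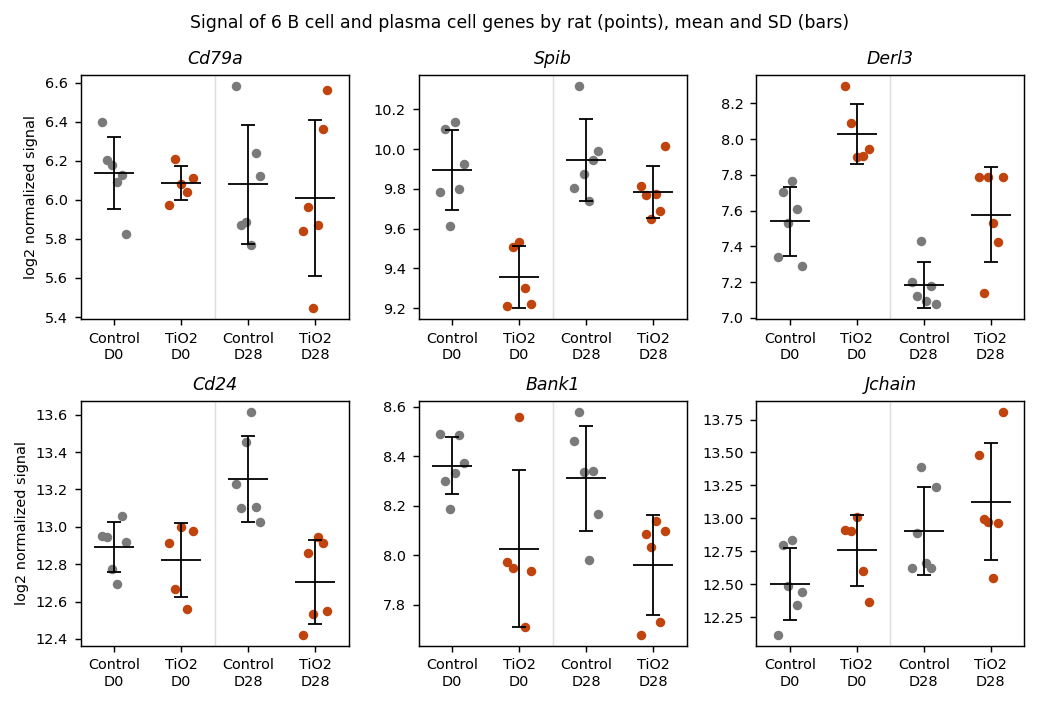
Log2 normalized signal (vertical axes, a scale of its own in each panel) of 6 genes in control (grey) and exposed (orange) rats on D0 and D28, with a point per rat and bars for the mean and SD of 5 or 6 rats. The 5 exposed rats of D0 lie below all controls for Spib and above all for Derl3, the 6 exposed rats of D28 lie below all controls for Cd24, and the groups overlap for Cd79a, Bank1 and Jchain.

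The other 5 transcription factors were not past the test on either day. Pax5, which holds B cell identity, differed by 0.08 on D0 and -0.30 on D28, and Ebf1, which acts before and beside it, by -0.02 and -0.14. Pou2af1, the B cell co-activator of octamer-binding factors, differed by 0.0041 on D0 and 0.08 on D28. Bcl6, the repressor of the germinal centre, was 0.02 higher on D0 and 0.16 lower on D28. Irf8, shared with dendritic cells and macrophages, was 0.26 and 0.25 higher (adjusted p = 0.658 and 0.639). Spib was thus the member of this role with a change on D0, and the interval of 4 of the 6 factors on D0 and of 5 on D28 lay inside the 1.5-fold limit.

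The surrogate light chain stands in for the light chain in precursor B cells. Vpreb1 encodes a part of it, and Vpreb3, grouped with it here, encodes a related protein of B cells. Vpreb1 was well above background in 0 of 6 controls and 2 of 5 exposed rats on D0, with 2.14, 3.19, 3.65, 3.70 and 3.87 in exposed rats against 1.80 over 2.08 to 3.21 in controls. The bound on its FC on D0 was at least 1.01-fold higher, with an adjusted p of 0.408. On D28 it was well above background in 1 of 6 controls and 0 of 6 exposed rats, which ran from 1.79 to 3.58, and no FC is given. Vpreb3, which was well above background on all arrays, ran on D28 from 5.89 over 5.94 to 6.35 in exposed rats and from 4.95 over 5.60 to 6.35 in controls. The 2 groups reached the same height, and the controls spread more widely (SD 0.53 against 0.17). The log2 FC was 0.42 (adjusted p = 0.346) on D28 and 0.13 on D0, and it passed the adjusted p on D28 with the slide as a block. That fit gives no weight to the D28 control alone on its slide, which had the highest Vpreb3 value of its group (6.35).

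The 7 plasma cell genes all had higher means in exposed rats on D0, and 6 of 7 did on D28, with a median log2 FC of 0.18 and 0.15. Only Derl3 passed the test, on D0. Jchain, whose product joins IgA and IgM units and is needed for their passage across epithelium, had 12.36, 12.60, 12.90, 12.91 and 13.01 in exposed rats on D0 against 12.12 over 12.46 to 12.83 in controls. On D28 it ran from 12.54 over 12.98 to 13.81 against 12.62 over 12.77 to 13.39. The groups overlapped on both days, although 3 of 5 exposed rats on D0 were above all controls, and the log2 FC was 0.25 (95% confidence interval -0.17 to 0.68, adjusted p = 0.786) and 0.22 (-0.18 to 0.63, 0.76). Mzb1, a partner of endoplasmic reticulum chaperones in immunoglobulin folding, had 7.57, 8.08, 8.10, 8.16 and 8.35 in exposed rats on D0 against 7.79 over 7.85 to 8.15. On D28 it ran from 7.48 over 8.50 to 8.76 against 7.66 over 8.06 to 8.52. On each day a rat of the exposed group had the lowest value of all, and the log2 FC was 0.14 on D0 and 0.24 on D28 (adjusted p = 0.94 and 0.723). Xbp1, the factor that enlarges the secretory pathway, was 0.18 and 0.11 higher, and Irf4, which drives the step to plasma cells, 0.31 and 0.13 higher. These Irf4 values average 2 probes. One was well above background on all arrays and gave 0.26 on D0 and 0.42 on D28 (limma adjusted p = 0.642 and 0.235, over probes). The other was well above background in only part of the rats of each group, and gave 0.37 on D0 and -0.16 on D28. Prdm1, which encodes BLIMP1, was 0.09 higher on D0 and 0.16 lower on D28. Sdc1, which encodes the plasma cell marker CD138 and is carried by epithelium too, was 0.10 and 0.15 higher. None of these 6 was past the test on either day.

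Derl3 encodes a derlin, a channel protein through which misfolded proteins leave the endoplasmic reticulum for degradation, and is high in secretory cells such as plasma cells. On D0 the exposed rats had 7.90, 7.91, 7.95, 8.09 and 8.30 and the controls ran from 7.29 over 7.57 to 7.77, so that all 5 exposed rats were above all 6 controls. The log2 FC was 0.49 (95% confidence interval 0.23 to 0.74, limma adjusted p = 0.032), a FC of 1.4. On D28 the exposed rats ran from 7.14 over 7.66 to 7.79 and the controls from 7.08 over 7.15 to 7.43, with 4 of 6 exposed rats above all controls, a log2 FC of 0.39 and an adjusted p of 0.118, which passed only in the fit without replicate 2 of the exposed rats of D28 among the 23 that left out 1 array. Derl3 was higher within each slide, by 0.60, 0.43, 0.37 and 0.61 on the 4 slides of D0 and by 0.38, 0.42 and 0.06 on the 3 of D28. The adjusted p on D0 was above 0.05 in 6 of 23 fits that left out 1 array, which were those without replicates 1, 3 or 6 of the D0 controls or replicates 1, 2 or 5 of the exposed rats of D0, and it reached 0.0969. It was also above 0.05 with scaling to the 75th percentile. In the average of both days Derl3 passed the test in all 23 such fits and in 12 of 12 other settings.

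Derl3 was measured by 4 probes, and all 4 were higher in exposed rats on both days. They lie on the minus strand of chromosome 20 of rn4, and the first 30 bases of each show which stretches of the transcripts were measured.
Derl3 probe A_44_P548559 (chr20:13165457-13165598): cttccagctctacttcaacccgcatctggt
Derl3 probe A_44_P1115807 (chr20:13164178-13164237): tttggctctctcacagggatcattgtgggc
Derl3 probe A_42_P536741 (chr20:13163303-13163362): ccacccaacagcatgggaattccccgtacc
Derl3 probe A_44_P1115812 (chr20:13151761-13151820): tagaactacagattttgtcatgccaggtcc
On D0, tested over 32367 probes with a gene symbol, A_42_P536741 had 0.69 as its log2 FC (limma adjusted p = 0.0069) and was past both thresholds. A_44_P1115807 had 0.59 (adjusted p = 0.184), A_44_P548559 had 0.45 (0.628) and A_44_P1115812, the probe outside the stretch spanned by the other 3, had 0.22 (0.94). The probes had unequal errors (0.14 to 0.27), so that these values do not show that the probes differ. Vpreb3, whose probe lies 35203 bases from the nearest Derl3 probe on the same strand, differed by 0.13 on D0. Over the 12 members with more than 1 probe, the probes of a gene had the same sign in 10 on D0 and in 7 on D28.

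**Figure D3:**
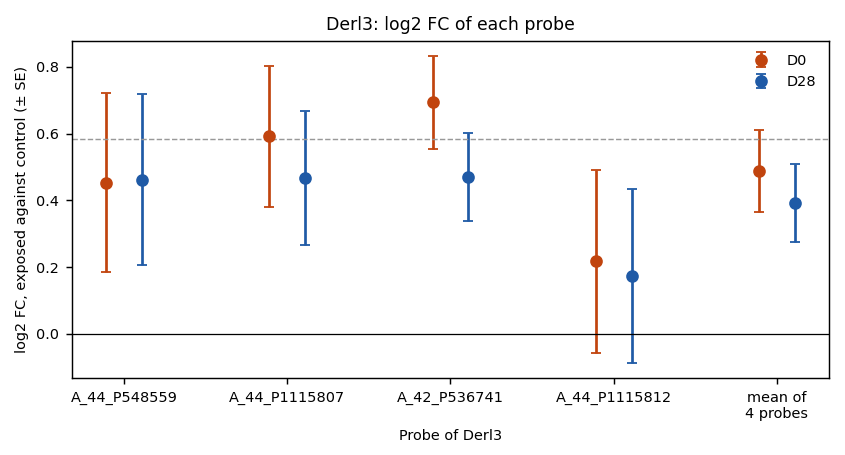
Log2 FC (vertical axis, ± standard error from limma) of exposed against control rats for each of the 4 Derl3 probes and for their mean, on D0 (orange) and D28 (blue), with a dashed line at a FC of 1.5. All points lie above 0, from 0.17 to 0.69, and A_42_P536741 has the highest value on D0.

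After these values had been seen, the promoters were read for short motifs because Derl3 rose while Xbp1, whose product binds endoplasmic reticulum stress elements, did not pass the test. The table of 250 bases before to 50 after the start of each gene, from RefSeq on GRCr8, held 22 of the 32 members among 33469 promoters. The endoplasmic reticulum stress response element ERSE (both strands) was found in 0.0657% of all promoters, and in those of Derl3 and Xbp1 among the 22. The shorter TGACGTGG of the unfolded protein response was in 0.595% of promoters and in 0 of the 22. The 250 bases before the start of both genes are shown because they hold the element, at 154 bases before the start for Derl3 (chr20:12766466-12766715, minus strand) and nearer the start for Xbp1 (chr14:84604373-84604622, plus strand). The capitals mark both ends of ERSE, in reverse for Derl3, and for Xbp1 also the letters CCCNNGGG.
Derl3: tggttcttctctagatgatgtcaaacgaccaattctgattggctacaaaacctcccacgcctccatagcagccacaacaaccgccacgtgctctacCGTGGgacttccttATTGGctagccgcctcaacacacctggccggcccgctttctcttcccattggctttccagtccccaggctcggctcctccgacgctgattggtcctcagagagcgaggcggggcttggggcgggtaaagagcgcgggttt
Xbp1: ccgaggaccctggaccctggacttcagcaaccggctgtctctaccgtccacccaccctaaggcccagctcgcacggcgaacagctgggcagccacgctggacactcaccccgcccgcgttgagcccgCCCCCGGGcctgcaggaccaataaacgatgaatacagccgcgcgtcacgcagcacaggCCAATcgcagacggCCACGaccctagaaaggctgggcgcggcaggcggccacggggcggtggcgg
The CCCNNGGG core that EBF1 binds was in 12.4% of promoters and in 5 of the 22, Spib, Bank1, Sdc1, Bcl6 and Xbp1. In the promoter of Spib (chr1:104161296-104161545, minus strand) it occurs in overlapping copies 74 and 75 bases before the start, in capitals here.
Spib: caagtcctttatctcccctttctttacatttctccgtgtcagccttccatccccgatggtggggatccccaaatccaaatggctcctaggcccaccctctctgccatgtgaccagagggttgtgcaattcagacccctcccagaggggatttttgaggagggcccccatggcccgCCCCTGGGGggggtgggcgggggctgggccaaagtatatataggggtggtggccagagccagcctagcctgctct
The octamer ATGCAAAT was in 1.78% of promoters and in those of Blnk and Vpreb3, and GAGGAAGT, to which PU.1 and SPIB bind, was in 2.42% and in those of Cd37 and Fcrl1. These matches describe the letters only and were not tested against the arrays.

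Since no probe was named Ighm, transcripts that the files name or describe as immunoglobulin chains were looked up after the other values had been seen. The 6 such genes were all higher in exposed rats on D0, with a median log2 FC of 0.49, and 4 of 6 on D28, with 0.22. With limma 0 of 6 passed the adjusted p on either day, and 1 on D0 and 0 on D28 had an unadjusted p below 0.05. Igh-6 had the largest difference on D0, with exposed rats from 7.31 over 7.88 to 8.85 against 6.48 to 7.47 in controls, a log2 FC of 1.15 (adjusted p = 0.076), and 0.35 on D28 (0.787). Igh-6 is an older name for the IgM heavy chain in mice, and whether its probe measures the chain that Ighm names was not settled here. Immunoglobulin genes have many near-identical copies, and which of them such a probe binds is uncertain.

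With time after exposure, the question was whether the members changed in controls. With limma 0 of 32 members passed the adjusted p between the D28 and D0 controls, against 0.877% of all genes, and 7 had an unadjusted p below 0.05. Of all 23029 genes, 3053 had such an unadjusted p. Fcrla had the largest difference among members above background, 1.02 higher on D28 (95% confidence interval 0.48 to 1.57, adjusted p = 0.0717), with 10.65 to 11.98 on D28 against 9.80 to 10.76 on D0. The D28 controls are also the arrays against which Fcrla was lower in exposed rats. All 6 transcription factors were higher in the D28 controls, with a median of 0.18, and Derl3 was 0.36 lower (adjusted p = 0.18).

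Around the members, 25 further B cell genes were measured of 29 listed. On D0 1 of them rose and 0 fell, and on D28 0 of 25 passed the limma test, while 8 had an unadjusted p below 0.05. The gene that rose was Cd74, the invariant chain of class II antigen presentation, by 0.43 (adjusted p = 0.045), which macrophages and dendritic cells express too. Ciita, its regulator, and Fcgr2b, the inhibitory IgG receptor, had the largest log2 FC of the list, 0.54 and 0.49 on D0 (adjusted p = 0.0755 and 0.177). In the average of both days 5 of the 25 rose past the adjusted p (Cd74, Cd83, Ciita, Fcgr2b and Swap70) and 1 fell (Rasgrp3), against 6.55% of all genes. The part of macrophages and dendritic cells in these changes was not tested. Of the 14 ligands, receptors and cytokines that sustain B cells and plasma cells (BAFF, APRIL and others), 0 passed the limma test on D0 or D28, and 3 and 0 had an unadjusted p below 0.05. The plasma cell receptor Tnfrsf17 differed by 0.28 and 0.32 (adjusted p = 0.829 and 0.703). Il4 and Cd40lg had the largest differences on D0, but were well above background in 2 of 6 and 1 of 6 controls and in 0 of 5 exposed rats, and no FC is given. On D28 the largest was Il21r with 0.49. Of 25 genes of antibody transport and the secretory pathway, 0 passed the limma test on either day (2 and 0 had an unadjusted p below 0.05), with medians of 0.11 and 0.02. Pigr, the receptor that carries IgA across epithelium, had 0.31 on D0 (adjusted p = 0.356), and Manf, a stress-induced protein of the endoplasmic reticulum, 0.30 (0.144). On D28 Pdia4 and Tent5c were the farthest from 0, at -0.25 and -0.22.

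Other cells of the lobe were read from their marker lists. Of 13 macrophage markers, 12 were higher in exposed rats on both days, with a median log2 FC of 0.53 on D0 and 0.40 on D28, and 4 rose on D0 (Cd68, Siglec1, C1qb, Ctsk) and 2 on D28 (Cd68, Ctsk). The mean of the list ran from 9.57 to 9.95 in exposed rats and from 9.09 to 9.36 in controls on D0, and from 9.35 to 9.62 against 8.90 to 9.28 on D28. The defining marker Cd68 rose by 0.55 on D0 and Siglec1 by 0.89, while Marco had the largest log2 FC of the list (1.04 and 0.85) and did not pass (adjusted p = 0.272 and 0.442). Of 20 T cell and NK markers, 0 passed the limma test on either day, with 0 and 1 at an unadjusted p below 0.05 and medians of -0.01 and -0.05, and Gzmb (-0.42) and Gzma (-0.39) on D0 and Nkg7 (-0.56) and Gzma (-0.55) on D28 had the largest differences. Of 11 genes of lymphoid stroma and follicle organisers, 0 passed the limma test (1 and 0 at an unadjusted p below 0.05), with medians of -0.18 and -0.04, and Glycam1 differed most, by -0.40 and -0.95 (adjusted p = 0.922 and 0.496). Of 4 markers of thymus and early lymphocytes 0 passed it (0 and 1), with the largest log2 FC for Igll1, 0.39 and 0.76. The part that macrophages and dendritic cells have in Derl3 and in the B cell genes they share, such as Btk, Irf8 and Cd40, was not tested.

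Covariation between rats of the same group was examined because genes of 1 cell type can vary together with the share of that cell in the piece of lobe taken. Deviations from group means over 23 arrays were correlated by permutation tests with 100000 resamples, two-sided, and adjusted over 31 members. Cd79a correlated with no member past the adjusted p for Pearson's r or Spearman's rho, and at an unadjusted p below 0.05 with 0 of 31 by r and 1 of 31 by rho. This member was Bcl6, which ran against Cd79a (r = -0.40, permutation p = 0.0559, rho = -0.51, permutation p = 0.014 and adjusted 0.434). Its r was -0.71 without the 2 arrays farthest from the median of Cd79a. The highest r above 0 was that of Cd72 (r = 0.38, permutation p = 0.073 and adjusted 0.544, rho = 0.415, permutation p = 0.0504 and adjusted 0.53). Cd72 ranked 2340th of all genes by its r, which was 0.28 without the 2 arrays farthest from the median of Cd79a. Cd79b reached 0.22 and Ms4a1 0.28, and the latter was -0.06 without these 2 arrays. With slide means removed r was 0.515 for Cd79b, 0.54 for Ms4a1 and 0.26 for Cd72. Without the D28 control alone on its slide r was 0.55 for Cd79b, 0.24 for Ms4a1 and 0.28 for Cd72. The relation of Cd79a to Cd79b thus depended on the handling of slides. The 10 genes of all measured with the highest r with Cd79a were Ugt2b7 (0.78), Zpbp, Adprh, RGD1310507, Krt15, Pola1, Commd7, Arl11, Alkbh3 and Capg (0.74), none of which is a member.

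The same was done for Jchain, chosen after its values were seen. Of the 31 members, 3 passed the adjusted p by r and 1 by rho. Pou2af1 correlated with Jchain at r = 0.84 (permutation p = 1e-05, the smallest that these resamples can give, adjusted 0.00031) and rho = 0.79 (p = 1e-05, adjusted 0.00031), the second highest r of all genes measured. The r was 0.76 without the 2 arrays farthest from the median of Jchain, 0.89 with slide means removed and 0.86 with scaling to the 75th percentile. Irf4 (r = 0.60, permutation p = 0.0024, adjusted 0.028, and rho = 0.52, p = 0.011, adjusted 0.0549) and Ms4a1 (r = 0.59, p = 0.00271, adjusted 0.028, and rho = 0.56, p = 0.00595, adjusted 0.0549) followed, with r of 0.47 and 0.57 without those 2 arrays. Both passed by r only, and since the permutation p-values are somewhat too small, these 2 passes are uncertain. The Irf4 values average 2 probes, of which 1 was not well above background on every array. Derl3 (0.53), Mzb1 (0.51), Spib (0.51) and Cr2 (0.53) did not pass by r (permutation p adjusted 0.0565 each). With slide means removed r was 0.70 for Derl3, 0.80 for Mzb1 and 0.32 for Spib. Without the 2 arrays farthest from the median of Jchain it was 0.40, 0.39 and 0.52 for these 3. With scaling to the 75th percentile it was 0.39, 0.51 and 0.52. The receptor Tnfrsf17, which is no member, had r = 0.81, and the 6 immunoglobulin chains ran from -0.20 for Igh-6 and 0.12 for Igha to 0.49 for LOC690813 and 0.51 for Igkv28. Cd79a (r = 0.09) and Cd79b (-0.0026) had permutation p-values of 0.678 and 0.991.

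**Figure D4:**
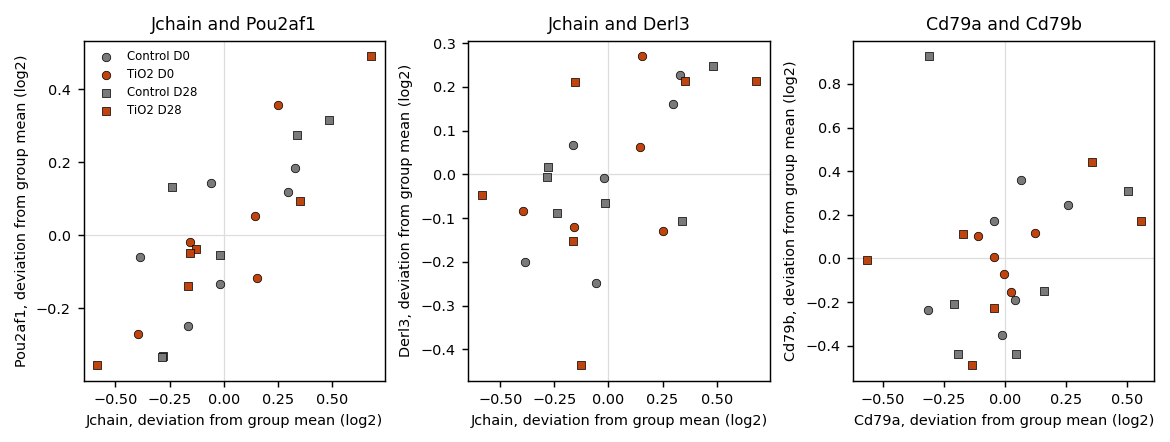
Deviations from the group mean (log2 signal, both axes) of Pou2af1 and Derl3 against Jchain and of Cd79b against Cd79a, with a point per rat for 23 arrays, grey for control and orange for exposed rats, circles for D0 and squares for D28. Pou2af1 rises with Jchain (r = 0.84), and Derl3 more loosely (0.53). Cd79b has an r of 0.22 with Cd79a over all arrays, and 0.55 without the D28 control alone on its slide.

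Over all 496 pairs of members the median r was 0.10, from -0.66 to 0.84, and 16 pairs had an r of at least 0.6. These are descriptions without a test. The medians were 0.10 for the receptor and surface proteins, 0.30 for the signalling genes, 0.37 for the transcription factors and 0.20 for the plasma cell genes. Ebf1 and Spib had an r of 0.75, Cd37 and Cd38 of 0.72, and Cd79b and Vpreb3 of 0.73. In Cd79b, Vpreb3 and Cd38 the D28 control alone on its slide stood above its group mean, by 0.93, 0.77 and 0.63. Without that array the r of Cd79b and Vpreb3 was 0.55, while that of Ebf1 and Spib was 0.73, that of Jchain and Pou2af1 0.88 and that of Cd37 and Cd38 0.77. Of the 16 pairs, 12 had an r of at least 0.6 both with and without it. With slide means removed not all of the 16 stayed at 0.6. The r was then 0.49 for Cd79b and Vpreb3, 0.70 for Ebf1 and Spib, 0.89 for Jchain and Pou2af1 and 0.71 for Cd37 and Cd38. The largest drop among the 16 was that of Vpreb1 and Sdc1, from 0.60 to -0.0033. Pax5 ran against several members, with r of -0.66 to Cd40, -0.62 to Blnk and -0.62 to Cd22.

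**Figure D5:**
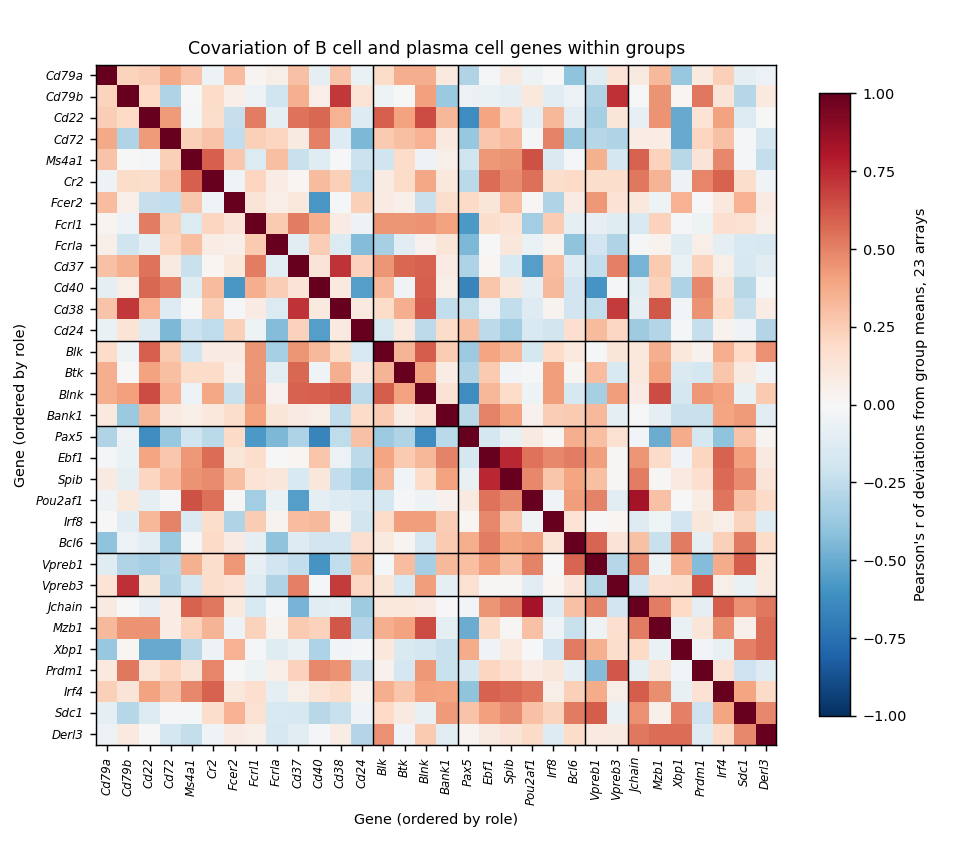
Pearson's r (colour, from -1 in blue to 1 in red) between the 32 genes on both axes, ordered by role with black lines between roles, from deviations of 23 arrays from their group means. The darkest cells off the diagonal are Jchain with Pou2af1 (0.84) and Ebf1 with Spib (0.75), the row of Cd79a is pale, and many cells in the row of Pax5 are blue.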

How the data were processed

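Lung RNA of 23 rats was hybridised to single-colour arrays, and the authors deposited the scanner output (Feature Extraction 11.0.1.1 for 22 arrays and 12.0.1.1 for the other), whose intensity values are background-corrected within the array. Their deposited table of normalized intensity values was an alternative. Control and outlier spots were left out. Of 45598 probes, the 40417 brighter on 5 or more arrays than the 95th percentile of 308 negative controls stayed in. Their log2 signals were quantile normalized, and 32415 probes with a symbol (from the array read by the later software) were averaged to 23029 genes. Probe positions are rn4. A single model (limma 3.58.1, R 4.3.3) had 4 groups, 19 residual degrees of freedom and no batch term, since the batches that the study corrected are not given in the sources used here. Adjusted p-values of genes are limma's, by Benjamini-Hochberg over all genes. The model was tested on simulated data for the D0 contrast, and the number of arrays limits the precision. There, 22 of 100 genes given a log2 change of 0.5 passed the adjusted p, and 67 of 100 given a change of 1. Only these genes were changed, fewer than the 659 past the adjusted p on D0 in the data, so the adjusted p was stricter in the simulation. Changes near 0.5 were mostly missed there, and no other contrast was simulated. A member not past the test may still have changed.

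Groups followed titles and descriptions, since the source label gives day 0 to the D28 exposed rats. Members, lists and tests were chosen with earlier results of these data known. By rule, values by rat were given for Cd79a, Spib, Jchain, Mzb1, Derl3, DEGs and the 5 largest log2 FC of each day, and of each list the DEGs and the 2 largest. Bank1, Ms4a1 and the promoters were added after their values were seen.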

Additional observations from a re-analysis of the deposited data

Results flagged for a closer look

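Each of the 32 genes was looked at in its 4 groups for an array far from the others, by the gap to the next value over the range of the group. Of these 128 groups 6 had such an array, and chance alone gives about 1 in 20. The values are log2 signals. Ms4a1 had 6.79 in replicate 3 of the exposed rats of D0, above the next at 6.35. Pax5 had 8.27 in replicate 4 of the exposed rats of D28, above the next at 7.67. In replicate 6 of the same group Fcrl1 had 2.26, below the next at 3.46 and not well above background, and Vpreb3 had 6.35, above the next at 5.96. Sdc1 had 14.84 in replicate 2 of the D0 controls, above the next at 14.64. Derl3 had 7.43 in replicate 3 of the D28 controls, above the next at 7.20.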

How the results depend on the processing

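Spib on D0 passed the adjusted p under each alternative tried, and Spib and Derl3 did in the average of both days. Members past the adjusted p on D0 numbered 2, and 1 with 75th percentile scaling or with a replicate block (Spib in both). On D28 they numbered 1, and 0 with the arrays of the day only or a replicate block, 2 with a filter on spots well above background (Cd24, Fcer2) and 3 with the slide as a block (Cd24, Fcrla, Vpreb3). In the average they numbered 4, and 2 with a replicate block (Derl3, Spib). Members past both thresholds numbered 0 in each contrast. On D0 this was 1 with the probe of highest signal or with each probe on its own (Derl3 in both, the latter chosen after seeing the data), and 2 with no fold limit. On D28 it was 1 with the filter on spots (Fcer2), array weights (Cd24), the slide as a block (Fcrla) or no fold limit, and in the average 4 with no fold limit. All genes past both thresholds on D0 (412) numbered 221 with normexp, 300 with the deposited table, 506 with the slide as a block or the filter on spots, 610 with array weights and 659 with no fold limit. On D28 (174) they numbered 94 with normexp, 42 with the arrays of the day, 119 with the deposited table, 251 with the slide as a block and 303 with no fold limit. For the difference of the days (7) they numbered 14 with normexp, 13 with the filter on spots and 12 with a trend and robust fit. In the average (430) they numbered 144 with normexp, 190 with the deposited table and 1509 with no fold limit. The cause was not tested. Leaving out 1 array gave 1 to 3 members past the adjusted p on D0, 0 to 2 on D28 and 2 to 4 in the average, and 0 to 1 past both thresholds in each. The members called then were Spib on D0 without replicate 3 of the D0 controls, Cd24 on D28 without replicate 6 of the D28 controls or replicates 4 or 5 of the exposed rats of D28, and Fcer2 in the average without replicate 4 of the exposed rats of D0. It gave 315 to 439 genes on D0, 111 to 203 on D28, 6 to 11 for the difference and 392 to 437 in the average, with the 111 without replicate 1 of the exposed rats of D28 and the 11 without their replicate 4. The correlation with Cd79a turned to -0.0594 for Ms4a1 and -0.18 for Spib without the 2 farthest arrays. Deviations of same-numbered arrays correlated from -0.22 to -0.12 on D0 and from -0.17 to 0.46 on D28, where 3 of 6 pairs were above 0.1. Since not every pair was, the numbers were not taken to pair the rats. The replicate block gave 356 genes on D0 and 138 on D28.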
